A study of Epimedium pubescens with 27 samples.

Results

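Phenylalanine ammonia-lyase (PAL) removes ammonia from phenylalanine and releases cinnamate, which cinnamate 4-hydroxylase and 4-coumarate-CoA ligase carry on towards flavonoids and lignin. The reaction stands where nitrogen and carbon metabolism part, because the ammonia can be taken up again by glutamine synthetase while the carbon skeleton leaves for the phenylpropanoids. In Epimedium, a medicinal herb of the barberry family, the flavonoids of the leaf are the valued compounds, and PAL is the entry step to them. The PAL family was taken here as every gene whose deposited description names phenylalanine ammonia-lyase, which gave 7 of 58645 genes. The same 7 genes are the only ones annotated with the aromatic amino acid lyase domain PF00221.

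Leaf RNA of Epimedium pubescens was sequenced from seedlings grown in river sand and perlite. After a recovery period on a dilute nutrient solution, they received 0 mM (LN), 7.5 mM (MN) or 22.5 mM (HN) nitrate, and leaves were taken 24 (S1), 36 (S2) or 48 (S3) days after treatment began (DAT). Each of the 9 groups had 3 libraries, replicates A, B and C, and none of the plants carried a transgene or mutation. Sodium nitrate served to set the nitrate of the solutions, and chloride and sulfate salts to balance the ions, so the nitrate level and the accompanying ions cannot be told apart. At the last stage older leaves were chlorotic under LN and necrotic under HN, so a late treatment effect and leaf damage cannot be told apart. The study calls the libraries of a group biological replicates, and whether each was a single plant or a pool is not given.

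The family falls into a pair and a group of 5 by its closest named protein. EpPAL2 (Ebr04G040710) and EpPAL3 (Ebr04G040750), the members that the study names, match a PAL of loblolly pine (Pinus taeda), and the other 5 match a PAL of tea (Camellia sinensis). EpPAL2 lies on chromosome 4 from 319850975 to 319854451 on the plus strand, and EpPAL3 follows on the same strand from 320081476 to 320084690. A gap of 227024 bp with 4 annotated genes separates them. The pair sits in a repeated arrangement. A pentatricopeptide repeat gene, a gene matching the chloroplast protein SLOW GREEN 1 and a PAL gene occur in this order (Ebr04G040690, Ebr04G040700 and EpPAL2), and matches to the same 3 proteins occur again in the same order and on the same strands (Ebr04G040730, Ebr04G040740 and EpPAL3). On chromosome 6, Ebr06G007280 (50165407 to 50170790, minus strand), Ebr06G007290 (50172988 to 50175932, minus strand) and Ebr06G007300 (50265138 to 50268288, plus strand) are neighbours with no annotated gene between them. Ebr06G041720 lies far away on the same chromosome and spans 54961 bp, although its summed exon length is 2378 bp. Ebr01G053210 lies alone on chromosome 1, from 458320539 to 458323905 on the plus strand. Coordinates are those of the deposited tables, and the sources used here do not name the genome build.

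Only 1 member carries a printed oligonucleotide. The study measured EpPAL2 by quantitative PCR, and its primer pair is shown as the only designed sequence of the family. It reports that the genes measured in this way at S3 followed the trends of its sequencing. Those PCR values were not analysed here. The primers were not placed on the gene here, and whether they tell EpPAL2 from EpPAL3 was not tested. The values below are sequencing counts per gene and do not depend on them. The pair is written 5′ to 3′ without capitals, since no part of a primer is singled out.
EpPAL2 forward: caccaattctgagaactgag
EpPAL2 reverse: attgatgtggcacgagac
The forward primer has 20 bases and 45% GC, and the reverse primer has 18 bases and 50% GC. No protein or promoter sequence of the family was analysed here, so sequence identity between members is not given. Members that sit side by side may share near-identical stretches. The sources used here do not say how reads that align to more than 1 gene were counted or whether strand was used, so the split of reads within the chromosome 4 pair and within the chromosome 6 group is uncertain.

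Library totals ranged from 13609959 to 18482851 counts, with a median of 15390848. The labelled tissue was checked on chlorophyll a-b binding genes, abundant in green leaf, whose 55 members summed to 19943 to 60737 FPKM (fragments scaled to gene length and library size), whereas 2 genes matching the RuBisCO small subunit summed to only 1.03 to 292 FPKM. Xylem and fibre wall markers, 16 genes of which 1 had no count in any library, ranged from 3.01 to 636 FPKM. In 6 groups a pair of replicates stood closer together than all 324 library pairs across groups, with a coefficient of variation of 0.0806 to 0.142 against at least 0.146. These close pairs were A with B in LN S1, in LN S2 and in HN S3, and B with C in MN S1, in MN S2 and in HN S2. Their chi-square per gene was 11.7 to 86.6, where counting alone gives about 1. This does not tell separate plants from repeat libraries of 1 sample, and each library was counted as the labels give it, with averaged close pairs as an alternative. At 3 libraries a group, exact permutation of 1 value gives no two-sided p below 0.1. For groups said below not to overlap, the share of all genes that separate likewise is not given. Nothing in the labels says that the replicates came from separate plants, and p-values then measure the spread between these libraries.

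PAL transcript was held mostly by a gene outside the named pair. Summed over the 7 members, the level was 32.3 FPKM in the lowest library (replicate C of LN S3) and 760 FPKM in the highest (replicate B of MN S2), a range of 23.5-fold, and the members took 0.00856% to 0.155% of a library's counts. Ebr01G053210 held 36.4% to 68.2% of the summed FPKM, with a median of 55.1%. Averaged over the 27 libraries its level was 143 FPKM, that of Ebr06G007300 was 41.7 FPKM and that of Ebr06G007290 was 32.9 FPKM. EpPAL2 followed at 13.5 FPKM, EpPAL3 at 9.63 FPKM, Ebr06G007280 at 8.88 FPKM and Ebr06G041720 at 5.67 FPKM. FPKM is scaled to gene length, so these levels can be set side by side.

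**Figure D1:**
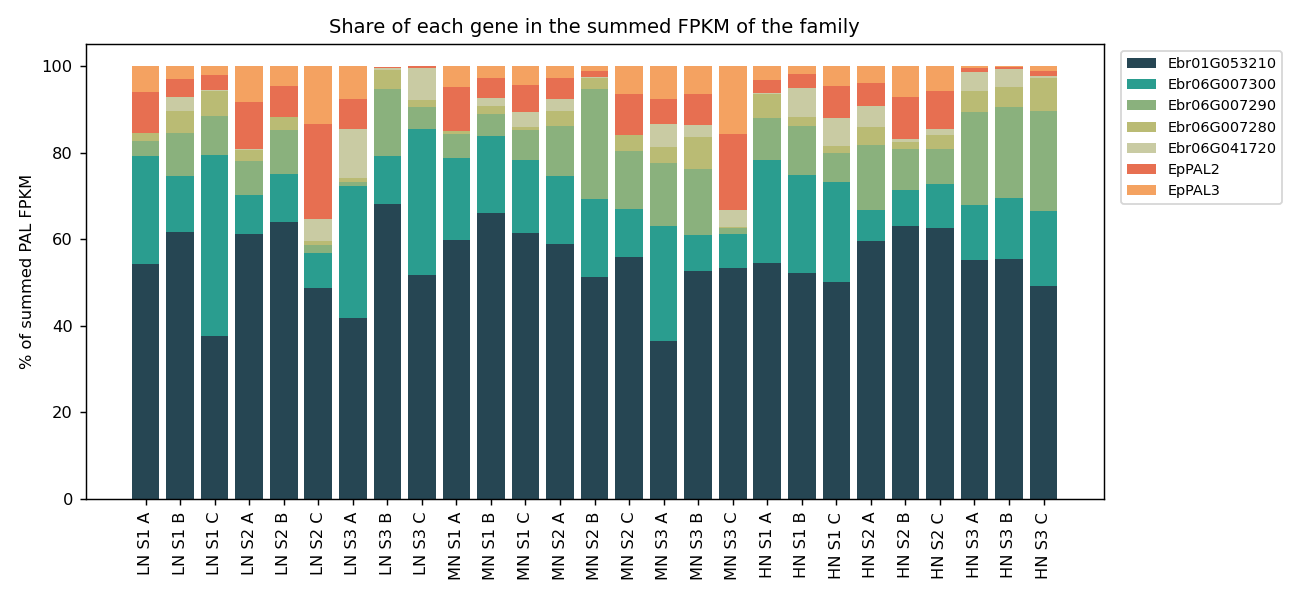
Share of each of the 7 PAL genes in the summed FPKM of the family (y axis, percent), 1 bar per library, ordered by treatment and stage. The share of EpPAL2 and EpPAL3 together is 0.683% to 2.3% in the 3 libraries of HN S3 and 13.3% to 33.2% in those of MN S3.

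For both EpPAL2 and EpPAL3, the 5 lowest libraries were the 3 of HN S3 and replicates B and C of LN S3. In bulk leaf RNA, fewer cells of a type and less RNA per cell cannot be told apart. For EpPAL2, the LN libraries A, B and C gave 18.4, 7.8 and 7.09 FPKM at S1. At S2 they gave 25.6, 21.1 and 17 FPKM, and at S3 they gave 4.83, 0.814 and 0.163 FPKM. The S3 libraries of LN lay below all libraries of LN S1 and LN S2. Under MN, the level of EpPAL2 was 13.3, 11.7 and 26.8 FPKM at S1, 6.45, 11.3 and 33.5 FPKM at S2, and 4.65, 28.8 and 7.84 FPKM at S3. Under HN it was 12.8, 13.8 and 20.3 FPKM at S1, 13.8, 28.3 and 22.2 FPKM at S2, and 2.28, 1.16 and 3.05 FPKM at S3. The 3 stages of MN overlapped, but at S3 this rested on replicate B. Replicates A and C of MN S3 lay below all libraries of MN S1. The 3 libraries of HN S3 were below all 6 earlier HN libraries and below all 3 of MN S3.

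EpPAL3 followed the same course at a lower level. Its LN libraries gave 11.7, 5.34 and 3.85 FPKM at S1, 19.3, 13 and 10.4 FPKM at S2, and 5.21, 0.503 and 0 FPKM at S3. The last of these was replicate C, in which no read was counted. A level of 3 counts, taken as an approximate upper limit for a count of 0, would correspond to 0.081 FPKM there. This limit covers counting error alone. Under MN the level of EpPAL3 was 6.16, 6.83 and 19.2 FPKM at S1, 3.72, 8 and 23.1 FPKM at S2, and 6.15, 26.4 and 7.12 FPKM at S3. Under HN it was 13.4, 8.47 and 12.1 FPKM at S1, 10.2, 20.4 and 15 FPKM at S2, and 1.16, 0.675 and 2.45 FPKM at S3. As for EpPAL2, HN S3 lay wholly below HN S1, HN S2 and MN S3. The ratio of EpPAL3 to EpPAL2 in FPKM stayed between 0.462 and 1.32 in the 26 libraries where EpPAL3 was counted, and it was 0.909 to 1.32 in MN S3 against 0.51 to 0.802 in HN S3.

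**Figure D2:**
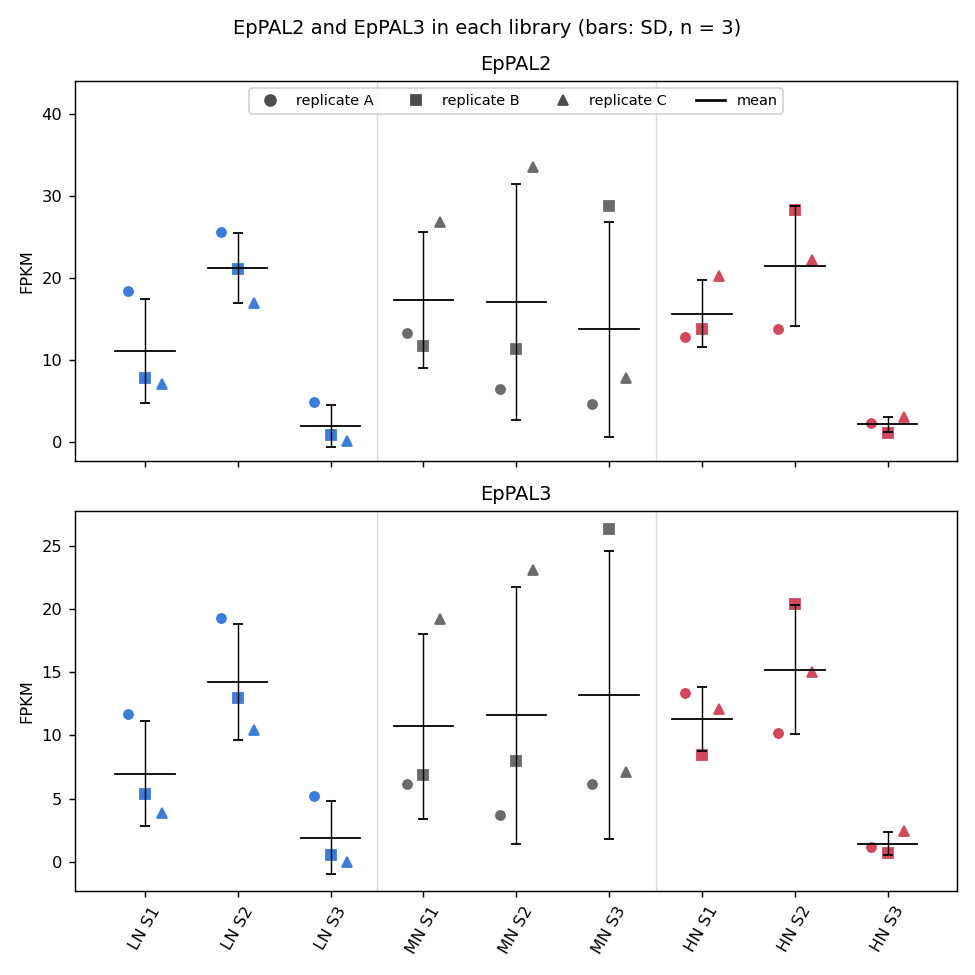
FPKM of EpPAL2 (top) and EpPAL3 (bottom) in each library by group, with symbols for replicates A, B and C, the group mean as a line and the SD (n = 3) as a bar. In HN S3 both genes sit below every other HN library, and in MN S3 replicate B stands at 28.8 and 26.4 FPKM, above replicates A and C.

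In order of group means, EpPAL2 was highest in HN S2 at 21.4 ± 7.28 FPKM (SD, n = 3), followed by LN S2 at 21.2 ± 4.33, MN S1 at 17.3 ± 8.29, MN S2 at 17.1 ± 14.4, HN S1 at 15.6 ± 4.09, MN S3 at 13.8 ± 13.1 and LN S1 at 11.1 ± 6.32 FPKM. HN S3 at 2.16 ± 0.951 and LN S3 at 1.94 ± 2.53 FPKM closed the order. The step from LN S1 to HN S3 was the only 1 of 8 between neighbours whose ranges did not overlap and that exceeded the larger SD of the pair of groups. EpPAL3 was also highest in HN S2, at 15.2 ± 5.12 FPKM, and lowest in HN S3, at 1.43 ± 0.915 FPKM, with LN S3 next to last at 1.91 ± 2.88 FPKM. Between its neighbours 1 of 8 steps exceeded the larger SD, and all neighbouring ranges overlapped. The order of the 9 groups was the same for both genes on CPM, counts scaled to library size, after TMM normalization, which corrects for library composition.

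The 5 tea-match genes did not share this course. The most abundant, Ebr01G053210, gave 151, 149 and 117 FPKM in HN S3 against 153, 183 and 161 FPKM in HN S2. Under MN S3 it gave 29.5, 213 and 24.1 FPKM, and under LN S3 28.9, 210 and 16.7 FPKM, so that in both groups replicate B stood far above A and C. Its group means ran from 85.3 ± 108 FPKM in LN S3 to 222 ± 156 FPKM in MN S2. Summed over the tea-match genes, the level was 233 to 270 FPKM in HN S3 and 220 to 242 FPKM in HN S2, while the sum of EpPAL2 and EpPAL3 was 1.83 to 5.5 FPKM and 24 to 48.8 FPKM in the same groups.

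Among the chromosome 6 neighbours, Ebr06G007290 was even in HN S3, at 58.8, 56.3 and 54.8 FPKM, above 38.4, 28 and 21.1 FPKM in HN S2 and 40.5, 48.1 and 18.3 FPKM in HN S1. Its highest library was replicate B of MN S2 at 192 FPKM. Ebr06G007300 gave 35.1, 37.5 and 41.6 FPKM in HN S3, between 18.8, 24 and 26.3 FPKM in HN S2 and 97.9, 97 and 63.2 FPKM in HN S1, with no overlap among these 3 groups. Ebr06G007280 ranged from 0.0237 to 29.9 FPKM, both of them in MN S3, and its highest mean was 14.7 ± 2.94 FPKM in HN S3. Ebr06G041720 ranged from 0.0765 to 28.2 FPKM with a coefficient of variation of 73.6% to 147% within groups, whose median of 91.8% was the highest of the 7 members. Its highest mean was 15.4 ± 14 FPKM in HN S1. The sum of all members ran from 137 ± 150 FPKM in LN S3 to 417 ± 317 FPKM in MN S2, and none of the 8 steps between neighbouring groups exceeded the larger SD.

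**Figure D3:**
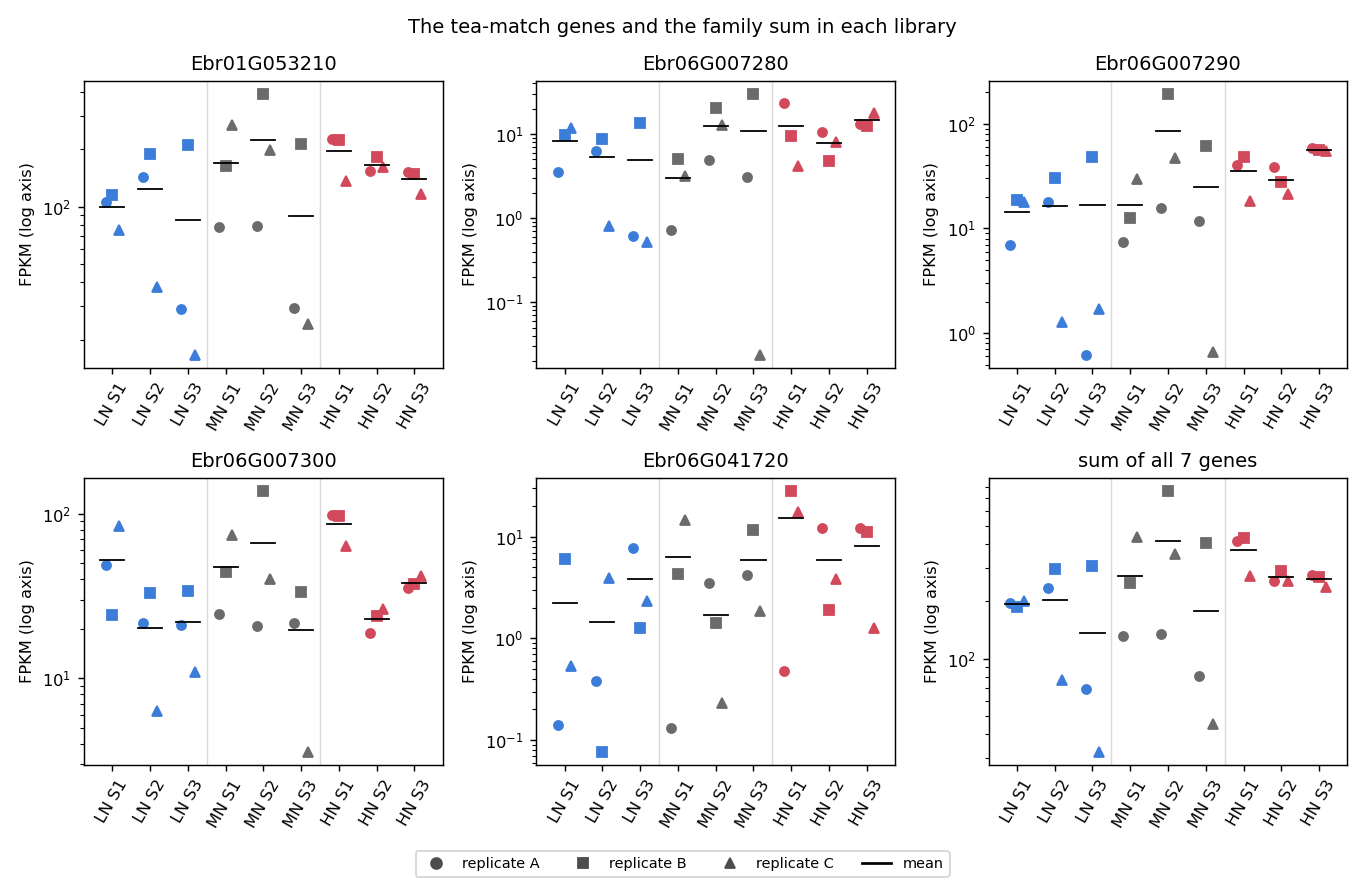
FPKM on a log axis of the 5 tea-match genes and of the sum of all 7 members, by group, with symbols for replicates A, B and C and the group mean as a line. In LN S3 and MN S3 replicate B stands above A and C in Ebr01G053210 (210 and 213 FPKM), whereas the HN S3 libraries of this gene lie between 117 and 151 FPKM.

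The tea-match genes and the secondary wall markers were high in some of the same libraries. The markers summed to 636 FPKM in replicate B of MN S2, the library with the highest PAL sum, and to 535 FPKM in replicate B of LN S3, against 7.34 and 7.37 FPKM in replicates A and C of LN S3. Across the 27 libraries, Spearman's rho between these markers and the summed tea-match FPKM was 0.55. For EpPAL2 and EpPAL3 it was -0.04 and -0.02. HN S1 and MN S1 departed from this, with markers of only 10.3 to 22.4 and 3.87 to 7.68 FPKM beside tea-match sums of 239 to 406 and 111 to 388 FPKM. For phloem markers, rho with EpPAL2, EpPAL3 and the tea-match sum was -0.49, -0.48 and -0.03. In the same order it was -0.38, -0.44 and 0.14 for pathogen response, and -0.21, -0.19 and -0.48 for senescence. It was 0.31, 0.39 and 0.37 for RuBisCO, and -0.09, -0.07 and 0.14 for chlorophyll a-b binding genes. Meristem markers gave -0.32, -0.27 and -0.40, and stomatal lineage markers -0.03, -0.01 and 0.36. All these values come from the same libraries, and the part of the markers in the PAL levels was not tested.

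Treatments were compared within each stage on the 6 libraries concerned with edgeR's quasi-likelihood test. Calls needed an adjusted p (Benjamini-Hochberg, over all genes tested) below 0.05 and a log2 fold change of 1 or more in either direction. All 7 members passed the filter on low counts in every fit. At S1 and S2 no member was called between treatments. At S1, EpPAL2 had log2 fold changes of -0.65 ± 0.49 (SE) for LN vs MN, -0.18 ± 0.38 for HN vs MN and 0.46 ± 0.42 for HN vs LN, and EpPAL3 had -0.63 ± 0.59, 0.04 ± 0.47 and 0.66 ± 0.45. At S2 the values of EpPAL2 were 0.31 ± 0.60, 0.31 ± 0.62 and -0.02 ± 0.29, and those of EpPAL3 were 0.29 ± 0.66, 0.37 ± 0.66 and 0.07 ± 0.32. The adjusted p of these 12 values lay between 0.794 and 0.994.

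At an unadjusted p below 0.05, edgeR gave 1 member for HN vs MN S1 (Ebr06G007280, 2.01 ± 0.82, adjusted p = 0.509) and 2 for HN vs LN S1 (Ebr01G053210, 0.94 ± 0.30, adjusted p = 0.446, and Ebr06G007290, 1.26 ± 0.49, adjusted p = 0.574). It gave 0 members in the other 4 comparisons of S1 and S2. DESeq2, the study's tool, called 0 members in these 6 comparisons and gave 0 to 2 at an unadjusted p below 0.05. The background was as sparse, since edgeR called 0.00918% of all genes tested for LN vs MN S1, 0% for LN vs MN S2, 0.111% for HN vs MN S1, 0.018% for HN vs MN S2, 0.0138% for HN vs LN S1 and 0.00885% for HN vs LN S2. For LN vs MN S2, where edgeR called 0 genes, 2908 genes had an unadjusted p below 0.05 and DESeq2 called 1095.

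At S3, EpPAL2 and EpPAL3 were lower under HN than under MN in all libraries, but edgeR called neither. EpPAL2 was at 2.16 ± 0.951 FPKM under HN and 13.8 ± 13.1 FPKM under MN (SD, n = 3), a log2 fold change of -2.68 ± 0.76 with an adjusted p of 0.152. EpPAL3 was at 1.43 ± 0.915 and 13.2 ± 11.4 FPKM, a log2 fold change of -3.22 ± 0.77 with an adjusted p of 0.132. These were the only members with an unadjusted p below 0.05, where edgeR called 0% of 22601 genes (0 genes, with 4583 at an unadjusted p below 0.05). DESeq2 called both, with an adjusted p of 0.00566 and 0.000499, beside 2.18% of genes called lower by it in this comparison. The 5 tea-match genes had positive log2 fold changes of 0.40 to 1.17, with adjusted p of at least 0.466 in edgeR. The study had picked EpPAL2 and EpPAL3 among its genes changed under HN at S3 in these same libraries, so their direction here is no independent evidence.

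The size of the HN difference at S3 rested in part on 1 library, replicate B of MN S3. Without replicate B of MN S3, the log2 fold change was -1.53 for EpPAL2 (adjusted p = 0.163) and -2.21 for EpPAL3 (adjusted p = 0.122). In DESeq2, EpPAL2 was then no longer called (adjusted p = 0.0575) and EpPAL3 was (adjusted p = 0.0098). EpPAL2 was also not called by DESeq2 without replicate A (adjusted p = 0.0675) or replicate B (adjusted p = 0.109) of HN S3. The same library, high in the tea-match genes, also set what was seen of them. Without it Ebr01G053210 was called higher under HN than under MN (log2 fold change 2.37, adjusted p = 0.0333 in edgeR), and DESeq2 called Ebr06G007290 higher as well (3.16, adjusted p = 0.00789). For fits without a library, here and below, the share of all genes called is not given, so their calls have no background beside them.

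LN differed from MN at S3 in the same direction, with a wider spread. The log2 fold change was -2.82 ± 1.25 for EpPAL2 and -2.79 ± 1.59 for EpPAL3, both with an adjusted p of 0.968. All LN libraries lay below all MN libraries for EpPAL3, while replicate A of LN S3 overlapped MN for EpPAL2. Neither tool called a member. At an unadjusted p below 0.05 edgeR gave 0 members and DESeq2 gave these 2, and edgeR called 0% of 22048 genes (0 genes, with 1035 at an unadjusted p below 0.05 and 213 called by DESeq2). Without replicate A of LN S3 the log2 fold change was -4.81 for EpPAL2, that of EpPAL3 was -5.71, and DESeq2 then called both genes, with an adjusted p of 0.000346 and 0.00131. HN and LN did not give a call at S3, with log2 fold changes of 0.14 ± 1.10 for EpPAL2 and -0.43 ± 1.58 for EpPAL3 and no member called by edgeR or DESeq2 or at an unadjusted p below 0.05, beside 0.00446% of genes called by edgeR. EpPAL2 and EpPAL3 overlapped between these groups. All libraries of HN S3 lay above all of LN S3 for Ebr06G007290 (at least 54.8 against at most 47.9 FPKM) and Ebr06G007300 (at least 35.1 against at most 34 FPKM). The share of all genes that separated in this way is not given. Without replicate B of LN S3, 3 tea-match genes were called higher under HN than under LN by edgeR, Ebr01G053210 (2.58, adjusted p = 0.0305), Ebr06G007280 (4.65, adjusted p = 0.0155) and Ebr06G007290 (5.59, adjusted p = 0.0179). EpPAL2 and EpPAL3 were not called without it (-0.22 and -0.87). The share of all genes called without it is not given, so the 3 calls are not read as a result about the family. These comparisons share libraries of LN S3, MN S3 and HN S3 and are not independent of each other.

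**Figure D4:**
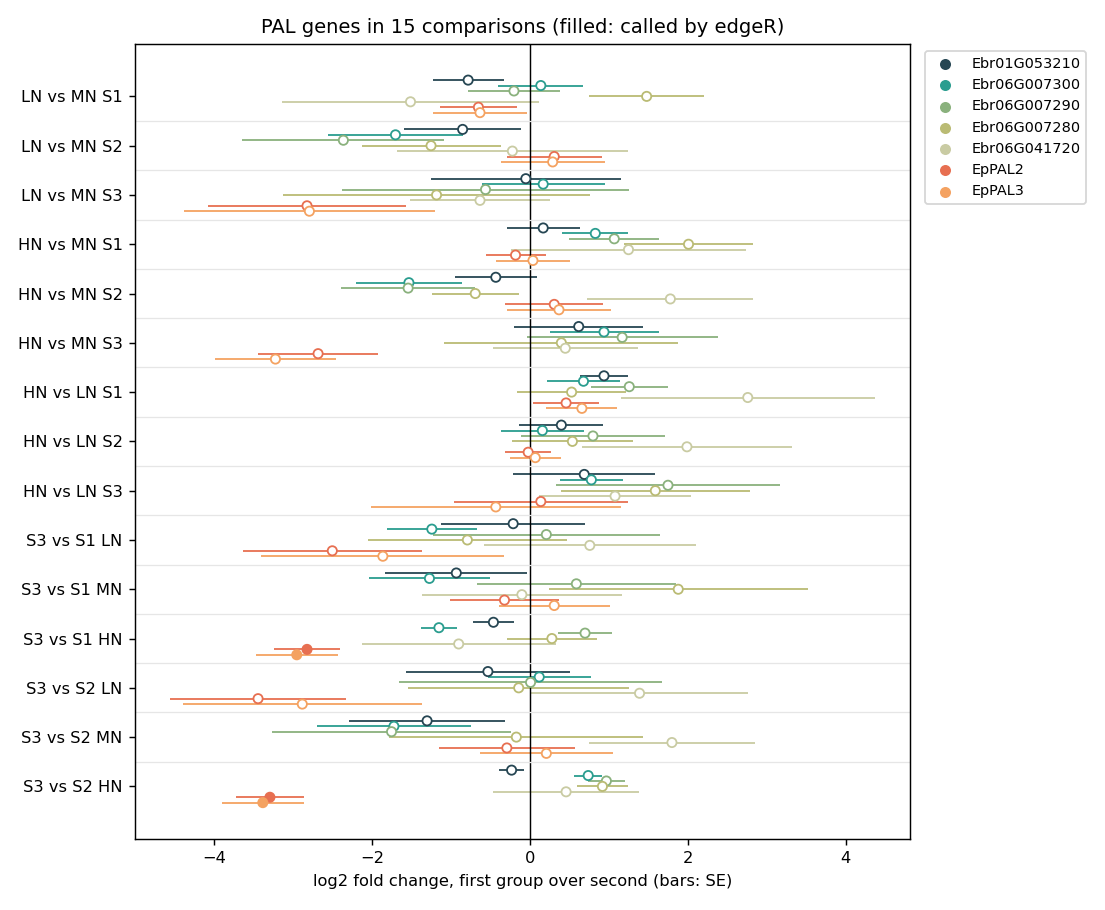
Log2 fold change (x axis) of the 7 PAL genes in 15 comparisons, first group over second, with the SE as bars. Filled points were called by edgeR, which holds for EpPAL2 and EpPAL3 in S3 vs S1 and S3 vs S2 under HN, and open points were not called.

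Among the 15 comparisons, only the time course under HN gave calls by edgeR within the family with all libraries in the fit. From S1 to S3, EpPAL2 fell from 15.6 ± 4.09 to 2.16 ± 0.951 FPKM, a log2 fold change of -2.82 ± 0.42 (7.08-fold lower, adjusted p = 0.0299). EpPAL3 fell from 11.3 ± 2.56 to 1.43 ± 0.915 FPKM, a log2 fold change of -2.95 ± 0.52 (7.73-fold lower, adjusted p = 0.0422). Both were called by edgeR, so 2 of 7 members were lower in a comparison where 0.578% of all genes tested were called lower. The HN S3 libraries also served the study's choice of these 2 genes. Their fall from S1, or from S2 below, is therefore no independent evidence. DESeq2 called them too and added Ebr06G007300 (-1.16 ± 0.29, adjusted p = 0.00139), beside 2.57% of genes called lower by it. In edgeR, Ebr06G007300 had -1.15 ± 0.23 and an adjusted p of 0.0576. The other 4 members had log2 fold changes of -0.90 to 0.70 and were not called.

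A comparison of S3 with S2 was added after the values had been seen, because S2 held the highest means of both genes. Under HN, EpPAL2 fell from 21.4 ± 7.28 FPKM at S2, a log2 fold change of -3.29 ± 0.43 (9.75-fold lower, adjusted p = 0.0297). EpPAL3 fell from 15.2 ± 5.12 FPKM, a log2 fold change of -3.38 ± 0.52 (10.4-fold lower, adjusted p = 0.0374). These were the 2 members called lower, beside 1.62% of genes in edgeR and 3.42% in DESeq2, which called the same 2. The chromosome 6 neighbours had positive values, with 0.97 ± 0.23 for Ebr06G007290 (adjusted p = 0.0594), 0.92 ± 0.32 for Ebr06G007280 (adjusted p = 0.128) and 0.74 ± 0.18 for Ebr06G007300 (adjusted p = 0.0603). All 3 libraries of HN S3 exceeded all 3 of HN S2 in each of these genes, and none was called. The share of all genes that separated in this way is not given, so this is not read as a result about them. In edgeR, 27.5% of all genes tested had an unadjusted p below 0.05 in this comparison. Without replicate A of HN S2, however, edgeR called Ebr06G007290 higher (1.22, adjusted p = 0.0233) and DESeq2 called it and Ebr06G007280 higher (1.23 and 1.22). Ebr01G053210 had -0.23 ± 0.16 (adjusted p = 0.396).

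The calls under HN were close to the threshold, although the direction did not change. In a single fit of all 27 libraries the adjusted p of S3 vs S1 was 0.0802 for EpPAL2 and 0.122 for EpPAL3, and that of S3 vs S2 was 0.0713 and 0.115. Replicates A and B of HN S3 were a close pair, and with close pairs averaged the adjusted p of S3 vs S1 was 0.138 and 0.196. Close pairs were not averaged for S3 vs S2, although HN S2 and HN S3 each hold such a pair. Leaving out replicate A or B of HN S3, or replicate B or C of HN S1, ended both calls of S3 vs S1, with log2 fold changes of -3.16 to -2.52 for EpPAL2 and -3.60 to -2.61 for EpPAL3 over all 6 libraries left out. Leaving out replicate A or B of HN S3, or replicate B or C of HN S2, ended both calls of S3 vs S2, with -3.63 to -2.97 and -4.03 to -3.04. DESeq2 kept both genes called without any 1 of the 6 libraries in either comparison.

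Other tissue signals also differed among the HN groups. Pathogen response genes summed to 499 to 856 FPKM in HN S3 against 158 to 201 FPKM in HN S2 and 164 to 943 FPKM in HN S1, and 25 of the 85 genes of this list had no count in any library. Phloem markers summed to 247 to 268 FPKM in HN S3 against 130 to 209 FPKM in HN S2 and 67.5 to 369 FPKM in HN S1. Xylem and fibre wall markers summed to 207 to 435 FPKM in HN S3, 195 to 278 FPKM in HN S2 and 10.3 to 22.4 FPKM in HN S1. Chlorophyll a-b binding genes gave 23061 to 43691, 20736 to 32844 and 28017 to 52249 FPKM in these 3 groups. The part of these signals in the fall of EpPAL2 and EpPAL3 was not tested.

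Under LN the means of the pair were also lower at S3, without a call by edgeR, and under MN the stages overlapped. From S1 to S3 under LN, EpPAL2 had a log2 fold change of -2.50 ± 1.13 and EpPAL3 of -1.86 ± 1.54, with adjusted p of 0.71 and 0.883. From S2 to S3 they had -3.44 ± 1.11 and -2.88 ± 1.51, with adjusted p of 0.498 and 0.678 in edgeR. DESeq2 called EpPAL2 in the latter (adjusted p = 0.0298), beside 0.87% of genes called lower by it. Without replicate A of LN S3 the log2 fold change of EpPAL2 from S1 to S3 was -4.50 and that of EpPAL3 was -4.78, and from S2 to S3 they were -5.44 and -5.83, none of them called by edgeR. Under MN, EpPAL2 had -0.32 ± 0.69 and EpPAL3 0.31 ± 0.70 from S1 to S3, and -0.29 ± 0.86 and 0.21 ± 0.84 from S2 to S3. edgeR called 0 members in these 4 comparisons and gave 1 at an unadjusted p below 0.05, EpPAL2 from S2 to S3 under LN. It called 0% of 21923 genes for S3 vs S1 LN, 0% of 21954 for S3 vs S1 MN, 0% of 22182 for S3 vs S2 LN and 0.00914% for S3 vs S2 MN. At an unadjusted p below 0.05 there were 1602, 1809 and 1817 genes in the comparisons with 0 calls, and DESeq2 called 619, 749 and 583.

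Whether the courses differed between treatments was tested over all 27 libraries, with an adjusted p below 0.05 and no fold-change threshold. Stage within treatment was called for EpPAL2 (adjusted p = 0.0358) and for no other member, with 0.109 for EpPAL3 and 0.112 for Ebr06G007300, and edgeR called 10.3% of genes here. DESeq2's likelihood-ratio test called all 3 of these (adjusted p = 0.000432, 0.0209 and 0.0217) and 18.5% of genes. Treatment within stage was called for 0 members by edgeR (EpPAL2, adjusted p = 0.178, the only 1 with an unadjusted p below 0.05) beside 1.42% of genes, and for EpPAL2 by DESeq2 (adjusted p = 0.0417) beside 10.1%. The interaction of treatment and stage was called for 0 members by either tool, with 0 members at an unadjusted p below 0.05 in edgeR and 2 in DESeq2. For EpPAL2 its adjusted p was 0.329 in edgeR, and edgeR called 0.175% of genes. The fall under HN was not shown to differ from the courses under MN and LN.

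The call of stage for EpPAL2 depended on the libraries. Its adjusted p ranged from 0.00843 to 0.0839 when each library was left out in turn and was 0.394 with close pairs averaged. It was lost without any 1 of replicate B of MN S1, B or C of HN S1, A or B of LN S2, B of MN S2, B or C of HN S2, B of LN S3, or A or B of HN S3. Without replicate A of LN S3 EpPAL3 was called as well (adjusted p = 0.0182). Over the 27 libraries edgeR estimated a biological coefficient of variation of 0.663 for EpPAL2 and 0.804 for EpPAL3, against a median of 0.562 over all genes tested.

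Within the family, the pair moved together and apart from the rest. On log2 TMM-normalized CPM over the 27 libraries, Pearson's r was 0.98 between EpPAL2 and EpPAL3. It was 0.91 between Ebr06G007280 and Ebr06G007290, 0.87 between Ebr01G053210 and Ebr06G007290, and 0.72 between Ebr06G007300 and each of its neighbours. Between EpPAL2 and the 3 chromosome 6 neighbours it was 0.14 to 0.19, and between EpPAL2 and Ebr01G053210 it was 0.44. Ebr06G041720 had r of -0.14 to 0.05 with every other member. These values are descriptions over libraries that share groups and stages. The number of reads that could align to both members of the pair is not known here.

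The 2 genes most like EpPAL2 and EpPAL3 over the 27 libraries both matched chalcone synthase. Among 28586 genes outside the family, the highest Pearson's r with EpPAL2 belonged to Ebr05G049130 (0.94) and Ebr03G073940 (0.88), where chalcone synthase builds the flavonoid skeleton, and to Ebr04G003020 (0.80), matching 4-coumarate-CoA ligase 2, which activates coumarate for it. With EpPAL3 the first 2 were the same chalcone synthases, at 0.94 and 0.87, and the third was Ebr02G075320 (0.84), matching a germacrene D synthase of terpene metabolism. Ebr05G049130 gave 25.7, 34.5 and 88.4 FPKM in HN S3 and 198, 315 and 294 FPKM in HN S2. In replicate C of LN S3, the library lowest in the PAL pair, it was at 4.71 FPKM, and in replicate B of MN S3 it was at 821 FPKM. After the mean of each stage was subtracted, both chalcone synthases remained first and second for both genes (r of 0.91 and 0.87 in each case), and Ebr04G003020 came to rank 52 for EpPAL2 with 0.64. By Spearman's rho, Ebr05G049130 was first for both genes, at 0.88 and 0.86.

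**Figure D5:**
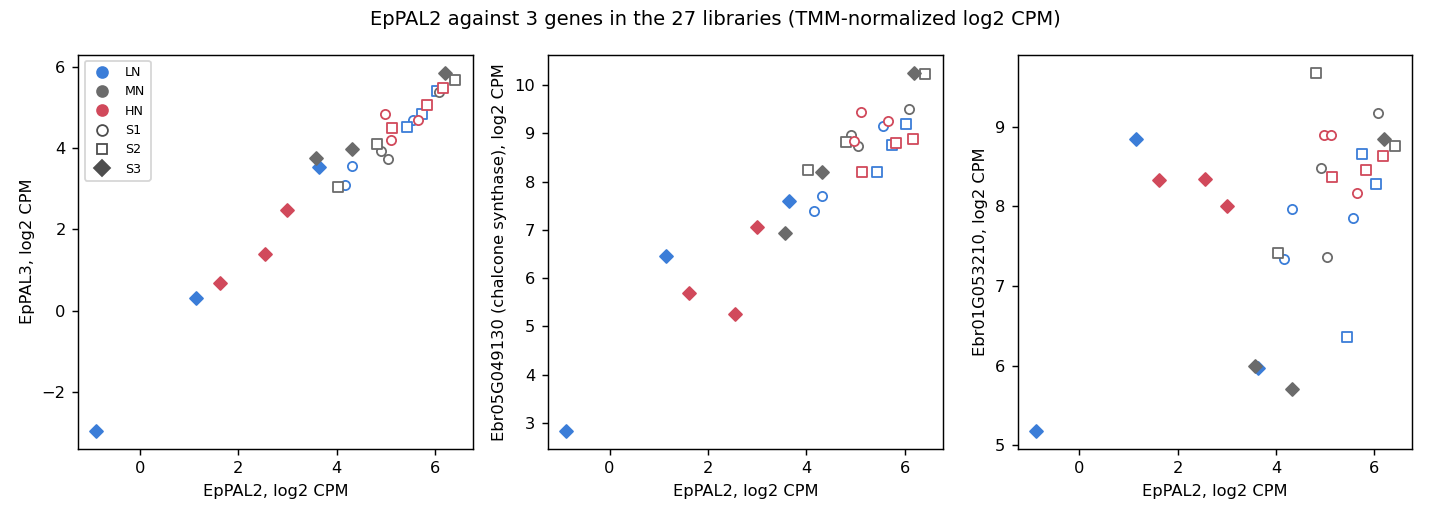
EpPAL2 (x axis) against EpPAL3, the chalcone synthase gene Ebr05G049130 and Ebr01G053210 (y axes), all as TMM-normalized log2 CPM, in the 27 libraries, coloured by treatment with filled diamonds for S3. The points follow a line for EpPAL3 (r = 0.98) and the chalcone synthase (r = 0.94) and scatter for Ebr01G053210 (r = 0.44).

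The steps around PAL were followed with lists of genes taken by description. Downstream towards flavonoids, 9 of 23 chalcone synthase and isomerase genes were tested for S3 vs S1 under HN. Of these, edgeR called 4 lower and 0 higher, where it called 0.578% of all genes tested lower. The median log2 fold change of the 9 was -2.22 against 0 over all genes tested. The 4 were Ebr05G049130 (-2.99 ± 0.52, adjusted p = 0.0416), Ebr03G073940 (-3.77 ± 0.63, adjusted p = 0.0401), Ebr01G026640, matching chalcone synthase 2 and the most abundant of the list (-2.87 ± 0.36, adjusted p = 0.02), and Ebr01G073610, matching a chalcone isomerase-like protein (-1.27 ± 0.20, adjusted p = 0.035). From S2 to S3 under HN, edgeR called 2 of 9 lower, beside 1.62% of all genes tested. They were Ebr05G049130 and Ebr03G073940, whereas Ebr01G026640 had a log2 fold change of 0.12 ± 0.26. The study names Ebr03G073940 as EpCHS5, from a network that drew on its genes changed at S3 in these same libraries. The fall of Ebr03G073940 into HN S3 is therefore no independent evidence. The mean of Ebr01G026640 was 5542 FPKM in HN S1, 696 FPKM in HN S2 and 746 FPKM in HN S3. The activating enzyme Ebr04G003020, the most abundant of 3 genes matching 4-coumarate-CoA ligase proper at a mean of 71 FPKM, fell as well (-1.86 ± 0.33, adjusted p = 0.0441, from S1, and -1.62 ± 0.20, adjusted p = 0.0277, from S2). Only 1 of 2 ligase genes tested was lower in each of these comparisons. Ebr05G005780, another ligase with a mean of 61.5 FPKM, was not called, so a fall of the ligase step as a whole was not shown. For HN vs MN S3, 0 of 9 chalcone genes were called by edgeR. An unadjusted p below 0.05 was found for 4 of them, beside 20.3% of all genes tested. DESeq2 called 2 lower, beside 2.18% of all genes.

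The step between PAL and the ligase was not called. Ebr01G074580, the only gene matching cinnamate 4-hydroxylase, was at 424, 413 and 231 FPKM in HN S3 and 309, 308 and 277 FPKM in HN S1, a log2 fold change of 0.28 ± 0.28 (adjusted p = 0.623). In LN S3 it was at 62.3, 258 and 33.1 FPKM and in MN S3 at 99.2, 488 and 124 FPKM, again with replicate B highest. Towards lignin, 63 of 157 genes of the monolignol branch were tested for S3 vs S1 under HN, of which 3 were called higher and 0 lower, where 1.62% of all genes tested were called higher. They were Ebr04G026900, matching caffeoyl-CoA O-methyltransferase and the most abundant of the list at a mean of 587 FPKM (1.36 ± 0.23, adjusted p = 0.04), Ebr05G059010, matching caffeic acid 3-O-methyltransferase (4.74 ± 0.52, adjusted p = 0.0155), and Ebr06G024300, matching cytochrome P450 98A2 (1.74 ± 0.27, adjusted p = 0.0334). From S2 to S3 under HN, 1 of 61 was called higher (Ebr01G052250, caffeoylshikimate esterase), beside 1.84% of all genes. Another 2 were called lower, beside 1.62% of all genes. These were Ebr03G054220, a putative caffeoyl-CoA O-methyltransferase, and Ebr04G064670, cinnamoyl-CoA reductase 1. Methyltransferases and reductases of these families can have other substrates, and the match does not give the product.

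Upstream, 30 genes of the phenylalanine supply list were tested from S2 to S3 under HN, where 1.62% of all genes were called lower. Of the 30, edgeR called 2 lower and 0 higher. They were Ebr05G051240, matching arogenate dehydratase 1, which forms phenylalanine (-1.80 ± 0.29, adjusted p = 0.0404), and Ebr01G003430, matching the bifunctional dehydratase and dehydrogenase of the shikimate route (-1.80 ± 0.36, adjusted p = 0.0485). From S1 to S3 under HN, edgeR called 0 of 30. An unadjusted p below 0.05 was found for 8 of them, beside 20.5% of all genes tested. DESeq2 called 3 lower and 1 higher, beside 2.57% and 4.46% of all genes. The list follows the shikimate and arogenate route, but a keyword also took in Ebr01G018600, matching aminodeoxychorismate synthase. That enzyme does not supply phenylalanine. The most abundant gene of this list, 1 that the authors predicted with StringTie, matches 3-dehydroquinate synthase and had a mean of 288 FPKM. Of 5 glutamine synthetase genes, which take up the ammonia that PAL releases, 3 were tested and none was called in the 15 comparisons, with Ebr01G000170 the most abundant at a mean of 1058 FPKM. The 5 genes matching other 4-coumarate-CoA ligase-like proteins, led by Ebr02G053190 at a mean of 6.41 FPKM, were tested for S3 vs S1 under HN with 0 called by edgeR, 1 at an unadjusted p below 0.05 and 1 called lower by DESeq2.

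Genes for F-box proteins of a kind that, in Arabidopsis, marks PAL protein for degradation had positive log2 fold changes from S1 to S3 under HN. Their sign varied in other comparisons. Of 9 genes with a match to At1g15670, 5 were tested for S3 vs S1 under HN, all with a positive log2 fold change and a median of 3.04. edgeR called 0, with 4 at an unadjusted p below 0.05, and DESeq2 called 4 higher, where it called 4.46% of all genes higher. All 5 tested were lower for HN vs MN S1 (median -1.01), and 4 of 5 were lower for S3 vs S2 LN (median -0.61). By contrast, 0 of 5 were lower for S3 vs S2 HN (median 1.90), HN vs MN S3 (1.51) and LN vs MN S2 (1.93). Ebr02G065740 was at 27.9, 33 and 8.21 FPKM in HN S3 and 1.42, 4.25 and 1.86 FPKM in HN S1 (3.21 ± 0.65, adjusted p = 0.0592). Ebr02G065560 was at 24.4, 24.2 and 6.2 FPKM in HN S3 and 1.5, 2.26 and 2.92 FPKM in HN S1 (3.04 ± 0.60, adjusted p = 0.054). The most abundant, Ebr02G065570, had 1.65 ± 0.37 (adjusted p = 0.0719), and its mean was 27 FPKM in HN S3 but 50.5 FPKM in LN S2. In each of the 3 the HN S3 libraries lay above all HN S1 libraries. Over the 27 libraries edgeR called stage within treatment for these 3 of 6 tested, with adjusted p of 0.0264, 0.0461 and 0.0474. These genes share a match, so the split of reads between them is uncertain, and no PAL protein or enzyme activity was analysed here. With 10.3% of all genes called for stage, it was also called for 2 of 11 tested chalcone genes (Ebr01G026640 and Ebr03G073940). Among 87 tested monolignol branch genes it was called for 6 (Ebr01G040150, Ebr04G064610, Ebr04G064670, Ebr04G065500, Ebr04G073600 and Ebr05G059010). On the phenylalanine supply list it was called for 2 of 30 tested genes. These were Ebr05G051240 and Ebr01G018600, the latter matching aminodeoxychorismate synthase, which does not supply phenylalanine.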

How the data were processed

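Per the labels, leaf RNA libraries were made with a NEBNext Ultra kit. The submitters' processing notes name HISAT2 2.0.5, StringTie 1.3.3b and featureCounts 1.5.0-p3. The deposited counts are the authors' raw counts of reads per gene. The deposited FPKM values of a library equal its counts divided by gene length, times 1 constant, as checked on the files. The annotation version is not stated. Counts were fitted with edgeR 4.0.16 (TMM, filterByExpr, quasi-likelihood F test, SE from the fold change and its F value) and, as alternatives, DESeq2 1.42.0 and limma 3.58.1 on log2(FPKM + 1) and log2(FPKM + 0.1), in R 4.3.3. DESeq2 gave no p for a few members whose counts it marked as outliers, and these stayed without a call. Tests were two-sided. Scripts were tested on simulated data.

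Members and gene lists were chosen with earlier results of these data known. All members were listed, EpPAL2 and EpPAL3 in every comparison. From each list the most abundant gene and every gene called by edgeR were named. Lists came from keywords in the matched protein names, and 1 spelling of chalcone isomerase was added after the descriptions had been seen. Likeness used log2 CPM with a prior count of 2. No column of per-sample values was left unassigned. Deviations of same-lettered libraries from their group means correlated by -0.26 to 0.282 over 108 pairs, and exceeded 0.1 for every letter in 1 of 36 pairs of groups, LN S3 and MN S3 (smallest 0.112). The labels give no pairing, and the main fits used none. A block of replicate letters was run as an alternative, and for LN S3 and MN S3 it changed no call.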

Additional observations from a re-analysis of the deposited data

How the results depend on the processing

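The 18 counts of called PAL genes were recomputed under 326 alternatives, of which 286 left them within 1.5 times. Most of these counts were 0, in comparisons where edgeR called few or no genes, so this total is no measure of stability. Counts above 0 were lowered by 7 of 21 alternatives for S3 vs S1 HN and 6 of 15 for S3 vs S2 HN. For stage within treatment 12 of 32 lowered the count. For HN vs MN S3, DESeq2 called 2 members in place of 0, and leaving out a library gave 0 to 1 in edgeR and 1 to 3 in DESeq2. Leaving out a library gave 0 to 3 for HN vs LN S3 in edgeR, and for LN vs MN S3 it gave 0 in edgeR and 0 to 2 in DESeq2. For S3 vs S1 HN, 0 members were called with 1 fit of all 27 libraries, with close pairs averaged and with the replicate block, in place of 2, and 0 to 2 without a library, while DESeq2 called 3 without any 1 library. For S3 vs S2 HN, added after seeing the data, 1 fit and the replicate block gave 0, and without a library 0 to 3 were called by edgeR and 2 to 4 by DESeq2. DESeq2 gave 1 for S3 vs S2 LN in place of 0. DESeq2 called 1 member for treatment within stage and 3 for stage within treatment, which gave 0 with close pairs averaged and 0 to 2 without a library. Runs of DESeq2 without a library change tool and library together and were added after seeing the data. Counts without a library are given without the share of all genes called.

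The replicate block changed no other count. Same-lettered libraries correlated for every letter only between LN S3 and MN S3, so calls lost under the block elsewhere are not read further. Signs of small differences turned when a library was left out, from lowest to highest log2 fold change. For LN vs MN this held for EpPAL3 at S1 (-1.23 to 0.10), EpPAL2 at S2 (-0.05 to 1.29) and EpPAL3 at S2 (-0.10 to 1.32). For HN vs MN it held for EpPAL2 and EpPAL3 at S1 (-0.41 to 0.28 and -0.24 to 0.76) and S2 (-0.09 to 1.25 and -0.06 to 1.36). For HN vs LN it held at S2 (-0.26 to 0.20 and -0.19 to 0.32) and S3 (-0.40 to 2.14 and -1.08 to 2.50). Under MN it held for S3 vs S1 (-1.48 to 0.13 and -0.70 to 1.02) and S3 vs S2 (-1.43 to 0.65 and -0.78 to 1.20). EpPAL2 for HN vs LN S2 was 0.02 in 1 fit of all libraries, and EpPAL3 for HN vs LN S3 was 0.86 with the replicate block, 0.14 on log2(FPKM + 1) and 0.99 on log2(FPKM + 0.1), in each case without a call. The cause was not tested. No fold-change threshold, no filter and RLE normalization changed no count of the 12 planned comparisons. They were not run for S3 vs S2, and neither were limma and the averaging of close pairs. In LN S3, EpPAL2 rests on 7 and EpPAL3 on 0 counts in replicate C, so depth limits fold changes there.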
